A study of Homo sapiens with 9 samples.

Results

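The 37 genes described here encode proteins of pyruvate entry, the tricarboxylic acid (TCA) cycle and mitochondrial fatty acid oxidation. Those of pyruvate entry carry pyruvate into mitochondria and turn it into acetyl-CoA or oxaloacetate. The TCA genes include the cytosolic malate dehydrogenase MDH1 and leave out aconitase and succinate dehydrogenase. The 37 genes were chosen by function, as a fixed list of symbols, out of 78894 genes in the deposited tables. No measured value of the tables entered the rule, but the list was drawn up with earlier results of these data known. By role, 8 belong to pyruvate entry (PDHA1, PDHB, PDHX, DLAT, DLD, MPC1, MPC2 and PC), 13 to the TCA cycle (CS, IDH2, IDH3A, IDH3B, IDH3G, OGDH, DLST, SUCLG1, SUCLG2, SUCLA2, FH, MDH1 and MDH2) and 16 to fatty acid oxidation (CPT1A, CPT2, ACADM, ACADS, ACADVL, HADHA, HADHB, HADH, ETFA, ETFB, ETFDH, ECHS1, ACAA2, ECI1, ECI2 and DECR1).

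Pyruvate enters mitochondria through a carrier made of MPC1 and MPC2, and the pyruvate dehydrogenase complex converts it to acetyl-CoA. Fatty acids enter as carnitine esters and are shortened by repeated rounds of beta-oxidation, which also end in acetyl-CoA. The TCA cycle oxidizes acetyl-CoA and passes the electrons on to the respiratory chain, some of whose subunits are made on mitochondrial ribosomes with tRNAs charged in the organelle. SARS2 is the mitochondrial enzyme that charges serine tRNA, and it is encoded in the nucleus, as are all 37 members.

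The study compared 3 groups of cells of the human line Hap1, which is nearly haploid and traces back to a chronic myeloid leukaemia, with 3 RNA-seq libraries in each group. In all 9 libraries the cells lacked their own SARS2, carried a FLAG-tagged SARS2 copy that doxycycline switches on, and had been kept without doxycycline for 6 days. The groups differed in a second, myc-tagged SARS2 copy, which was wild type (WT), carried R227Q or carried H448L. The labels mark this second copy "int14" without explaining it, and the sources used here do not say whether each line is 1 clone or the libraries separate cultures. The p-values therefore reflect how far these libraries vary, and that variation may be technical.

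Total counts ran from 9900892 to 12991050 per library, so that 1 count stood for 0.0770 to 0.101 CPM (the count scaled to a library total of 1e+06). SARS2, whose copies the tables cannot tell apart, averaged 7.48 CPM in WT, 8.04 CPM in R227Q and 8.16 CPM in H448L, and neither variant differed from WT in edgeR's quasi-likelihood test (adjusted p = 0.38 and 0.29), so the gene total does not check the labels. The headers carry 2 codes, taken here as submissions to the sequencing service: SDKYMR holds WT 1, WT 2 and R227Q 1, and 4LJFHN holds WT 3, R227Q 2, R227Q 3 and all H448L libraries. All 7 haematopoietic markers averaged under 1 CPM, and their sum was 0.95 to 2.79 CPM in WT, 1.3 to 2.69 CPM in R227Q and 0.953 to 1.31 CPM in H448L. Of markers of other cell types, 7 fibroblast genes summed to 29.7 to 64.8 CPM in WT, 32.8 to 74.1 CPM in R227Q and 63.9 to 75.4 CPM in H448L, 5 epithelial genes to 78.0 to 81.5, 84.8 to 92.2 and 79.2 to 89.8 CPM, and 5 neuronal and kidney genes to 138 to 146, 125 to 129 and 113 to 126 CPM. KRT18 averaged 74.9 CPM over the 9 libraries, TUBB3 114 CPM and COL1A1 39 CPM, so single genes made up much of each sum. CDH1, KRT19, NEFM, STMN2, DCN and LUM each averaged under 1 CPM. The WT and R227Q ranges span both submissions, whereas H448L has libraries in 4LJFHN alone. None of these markers was at 0 in all libraries, no marker that defines Hap1 was tested, and the part of these lists in the results below was not tested.

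The first question was whether the variant copies went with other levels of these metabolic genes. All 37 members were expressed above the filter on low counts, from a mean of 6.58 CPM for PC to 627 CPM for MDH2. With R227Q, 2 members rose (IDH2 and ACADVL) and 3 fell (PDHA1, PDHB and SUCLG2), which is 13.5% of the members, against 17.4% of all 16908 genes tested. In the same comparison 7.5% of all genes rose and 9.91% fell. With H448L, 1 member rose (ACADVL) and 4 fell (PDHA1, PDHB, SUCLG2 and ETFA), again 13.5% of the members, against 7.97% of all genes, of which 2.97% rose and 4.99% fell. Among genes within the members' range of mean CPM, 21.9% passed with R227Q and 10.2% with H448L. The median member moved by −0.040 with R227Q and −0.007 with H448L on the log2 scale, and the median of all genes by 0.002 and 0.006. Both variants were set against the same 3 WT libraries, so their changes are not independent of each other. A call means an adjusted p under 0.05 (Benjamini-Hochberg over all 16908 genes) in edgeR's quasi-likelihood test with a term for submission. Under upper-quartile scaling the R227Q split among members was 4 higher and 3 lower, and among all genes it was 1565 higher and 1335 lower in place of 1268 and 1676. Without the submission term, all 10 of these member calls were lost.

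**Figure D1:**
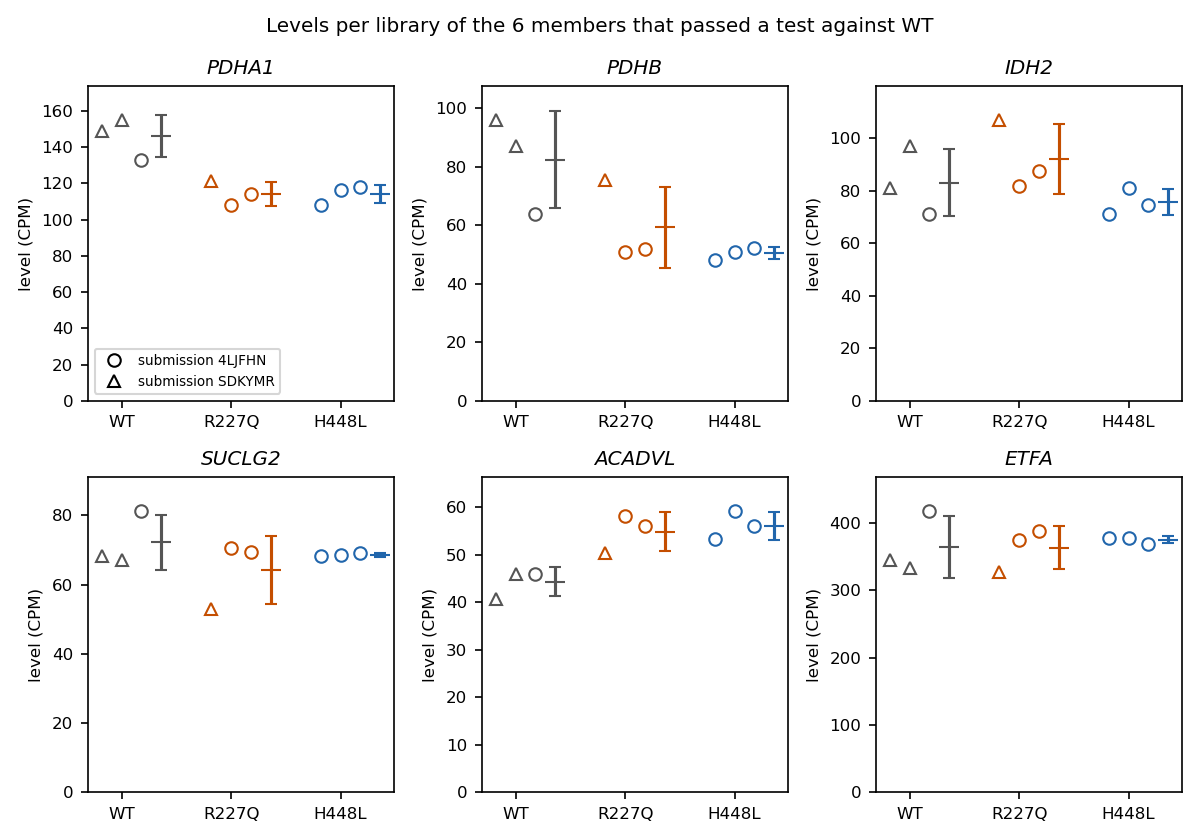
Level in CPM of the 6 members that passed a test against WT, for each library in WT, R227Q and H448L; the symbol gives the submission, the cross-bar the group mean and the whisker 1 SD (n = 3). PDHA1 sits at 108 to 121 CPM in all variant libraries and at 133 to 155 CPM in all WT libraries, whereas for SUCLG2, IDH2 and ETFA the variant libraries overlap WT when the submissions are read together.

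PDHA1 and PDHB, the alpha and beta subunits of the decarboxylase that starts the pyruvate dehydrogenase reaction, were lower with either variant. PDHA1 (ENSG00000131828, X:19343893-19361705, plus strand, GRCh38) was at 149, 155 and 133 CPM in WT 1 to WT 3, at 121, 108 and 114 CPM in R227Q 1 to R227Q 3, and at 108, 116 and 118 CPM in H448L 1 to H448L 3. Every variant library was below every WT library. In edgeR, PDHA1 fell by 0.31 ± 0.046 (SE) on the log2 scale with R227Q, which is 1.24-fold lower (adjusted p = 1.7e-05), and by 0.27 ± 0.054 with H448L (adjusted p = 0.0016). The fall was present in each submission, with R227Q minus WT at −0.34 in SDKYMR and −0.27 in 4LJFHN, and H448L minus WT at −0.24 in 4LJFHN (differences of mean log2 CPM). Both PDHA1 calls held when any 1 library was left out and were lost without the submission term (−0.38 with R227Q and −0.41 with H448L). Exons of PDHA1 share 956 bases, 21.3% of its exon bases, with MAP3K15 on the opposite strand, a gene outside the lists at 8.03 to 12.6 CPM that differed by −0.31 and −0.34 without passing (edgeR, adjusted p = 0.089 and 0.15), and the part of those reads in the PDHA1 values was not tested. In bulk RNA, fewer cells expressing a gene and less RNA per cell cannot be told apart.

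PDHB (ENSG00000168291, 3:58427630-58433857, minus strand) was at 96.0, 87.1 and 63.9 CPM in WT, 75.3, 50.7 and 51.7 CPM in R227Q, and 48.2, 50.9 and 52.1 CPM in H448L. The libraries of SDKYMR were high in both WT and R227Q, so R227Q 1 lay above WT 3, and H448L lay below all WT libraries. With the submission term, PDHB fell by 0.31 ± 0.053 on the log2 scale with R227Q (edgeR, adjusted p = 0.00012) and by 0.35 ± 0.066 with H448L, which is 1.28-fold lower (adjusted p = 0.0008). Within submissions the R227Q difference was −0.29 and −0.33, and the H448L difference −0.36. The H448L call was lost without WT 3, the only WT library in the submission that holds H448L (−0.33), and without the submission term the values were −0.50 for R227Q and −0.77 for H448L.

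The promoters of PDHA1, PDHB and SUCLG2 are shown because these members fell with both variants, and they are printed from 250 to 51 bases before the annotated start (RefSeq, GRCh38.p14, 5′ to 3′ on the gene's strand), with GC boxes and CCAAT boxes in capitals. PDHA1 lies at chrX:19343677-19343876 on the plus strand, PDHB at chr3:58433883-58434082 on the minus strand and SUCLG2 at chr3:67654663-67654862 on the minus strand.
PDHA1: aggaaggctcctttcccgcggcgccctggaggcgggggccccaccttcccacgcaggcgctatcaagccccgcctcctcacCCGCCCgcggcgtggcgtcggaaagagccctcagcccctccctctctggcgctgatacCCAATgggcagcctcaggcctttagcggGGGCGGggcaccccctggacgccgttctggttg
PDHB: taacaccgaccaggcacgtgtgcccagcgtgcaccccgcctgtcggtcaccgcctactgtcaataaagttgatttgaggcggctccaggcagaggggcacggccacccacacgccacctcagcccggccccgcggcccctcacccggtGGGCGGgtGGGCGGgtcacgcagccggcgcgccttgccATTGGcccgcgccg
SUCLG2: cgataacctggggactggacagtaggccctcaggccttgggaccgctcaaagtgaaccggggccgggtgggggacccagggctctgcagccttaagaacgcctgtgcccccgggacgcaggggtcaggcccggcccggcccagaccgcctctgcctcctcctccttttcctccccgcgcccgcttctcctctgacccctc
PDHA1 holds a GC box on the other strand from 169 to 164 bases before the start, a GC box from 83 to 78 and a CCAAT box from 111 to 107. PDHB holds GC boxes from 102 to 97 and from 94 to 89, and a CCAAT box on the other strand from 64 to 60. In SUCLG2 neither motif was found, and most of its 200 bases lie in an exon of the antisense gene SUCLG2-AS1. RefSeq promoters were matched for 34 of the 37 members. The search covered both strands from 250 to 51 bases before the start, so the bases nearest the start were not searched. The GC box GGGCGG occurred in 20 of 34 (58.8%) against 46.5% of 14896 coding promoters of the same length, and CCAAT in 13 (38.2%) against 29.8%. Rarer motifs were CCGGAAG, the ETS site, in 4 members (11.8% against 6.76%), the NRF1 motif in 2 (5.88% against 4.59%) and AANATGGCG, the YY1 site, in 2 (5.88% against 1.33%). The ERR, PPAR (DR1), ATF4 (CARE) and CRE motifs had 0 matches among the members, against 0.477%, 0.00671%, 1.83% and 1.24% of coding promoters. At such rates, 0 matches in 34 promoters do not show that the members lack a motif. A match is a stretch of letters and not a measured binding site.

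The other pyruvate genes did not pass the test with either variant, and their log2 fold changes ran from −0.30 to −0.04 with R227Q and from −0.16 to 0.07 with H448L. DLD, the dihydrolipoyl dehydrogenase shared with the oxoglutarate dehydrogenase complex, was at 72.8 to 82.7 CPM over the 9 libraries and differed from WT by −0.05 and −0.11. MPC2, a subunit of the pyruvate carrier, was at 64.2 to 78.9 CPM, with differences of −0.06 and −0.05. DLAT, the acetyltransferase core of the complex, was at 48.7 to 68.7 CPM, with differences of −0.12 and −0.09. PC, which carboxylates pyruvate to oxaloacetate, had the lowest level of the 37, at 5.54 to 7.77 CPM, and the widest errors (−0.30 ± 0.135 with R227Q, edgeR adjusted p = 0.12). For 5 of these 6 genes the 95% interval of the difference lay within 0.32 of 0 on the log2 scale in each comparison with WT, with PC as the exception. Summed over the 8 genes, WT was at 532.8, 523.8 and 498.5 CPM, R227Q at 469.1, 451.8 and 451.4 CPM and H448L at 439.7, 465.2 and 467.9 CPM. No variant library reached the lowest WT sum. The sums include PDHA1 and PDHB, the members of the group that passed the test. With those left out, the sums of the remaining genes overlap between WT and the variants when the submissions are read together. Within each submission, every variant library still lay below WT in that smaller sum. The gap therefore rests largely, but not wholly, on PDHA1 and PDHB. Of the 8 genes, 8 had negative log2 fold changes with R227Q and 7 with H448L. These sums were not tested.

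**Figure D2:**
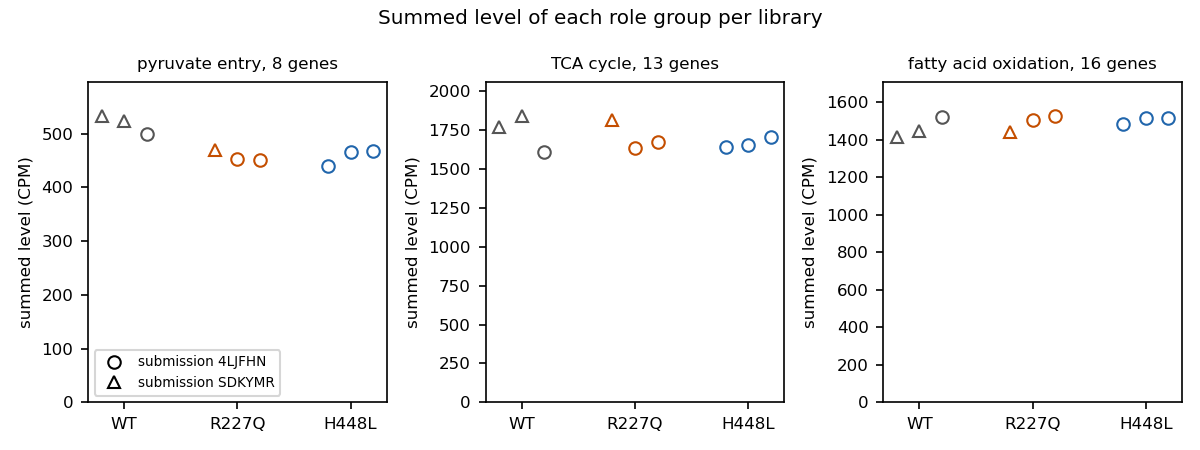
Summed level in CPM of the 8 pyruvate entry, 13 TCA cycle and 16 fatty acid oxidation genes in each library by group (n = 3). The symbol gives the submission. With PDHA1 and PDHB included, the pyruvate entry sums are 439.7 to 469.1 CPM in the variant libraries and 498.5 to 532.8 CPM in WT. The sums of the other role groups overlap.

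In the TCA cycle, SUCLG2 fell with both variants, IDH2 rose with R227Q, and the remaining members did not pass. SUCLG2 (ENSG00000172340, 3:67360460-67654614, minus strand) is the beta subunit of the GTP-forming succinyl-CoA ligase. It was at 68.3, 67.1 and 81.2 CPM in WT, 53.0, 70.6 and 69.3 CPM in R227Q, and 68.2, 68.6 and 69.1 CPM in H448L. The groups overlap across submissions, but in SDKYMR R227Q 1 lay below both WT libraries and in 4LJFHN all 5 variant libraries lay below WT 3. In edgeR, SUCLG2 fell by 0.29 ± 0.051 on the log2 scale with R227Q (adjusted p = 0.00015) and by 0.31 ± 0.059 with H448L (adjusted p = 0.001). The within-submission differences were −0.36 and −0.22 for R227Q and −0.26 for H448L. The R227Q call was lost in 4LJFHN alone (−0.23), and without the submission term the values were −0.19 and −0.13. Its partners did not pass with either variant: SUCLG1, the shared alpha subunit, differed from WT by 0.05 and 0.04, and SUCLA2, the ATP-forming beta subunit, by −0.08 and 0.02.

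IDH2 (ENSG00000182054, 15:90083045-90102504, minus strand), the mitochondrial isocitrate dehydrogenase that reduces NADP, was at 80.9, 97.0 and 71.3 CPM in WT, 107, 81.7 and 87.4 CPM in R227Q, and 71.2, 81.0 and 74.5 CPM in H448L. R227Q lay above WT within each submission and overlapped it across them, and H448L overlapped WT and lay below all R227Q libraries. IDH2 rose by 0.25 ± 0.060 on the log2 scale with R227Q (edgeR, adjusted p = 0.0037), and the value for H448L was 0.07 ± 0.072 (adjusted p = 0.64). The within-submission differences were 0.26 and 0.23 for R227Q and 0.06 for H448L. The call was lost without WT 3 (0.26), without R227Q 1 (0.24) and in 4LJFHN alone (0.23), and without the submission term the value was 0.12.

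MDH2, the mitochondrial malate dehydrogenase, was the member with the highest level, at 565 to 673 CPM, and differed from WT by 0.11 ± 0.039 with R227Q (edgeR, adjusted p = 0.055) and 0.06 with H448L. It passed the R227Q test in 8 of the 18 alternative settings, at 0.11 to 0.13. CS, citrate synthase, was at 293 to 309 CPM in SDKYMR and 192 to 219 CPM in 4LJFHN, and differed from WT by −0.08 and 0.01. IDH3A, the catalytic alpha subunit of the isocitrate dehydrogenase that reduces NAD, was at 170 to 203 CPM, with differences of −0.02 and −0.05. FH, fumarase, differed by −0.14 ± 0.054 with R227Q (edgeR, adjusted p = 0.069) and passed that test without H448L 3 (−0.14). Across the TCA members that did not pass, the values ran from −0.14 to 0.11 with R227Q (11 genes) and from −0.05 to 0.14 with H448L (12 genes), and the 95% interval of each lay within 0.32 of 0. TCA sums were 1605.2 to 1839.5 CPM in WT, 1635.9 to 1815.2 CPM in R227Q and 1642.9 to 1706.3 CPM in H448L and overlapped.

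In fatty acid oxidation, ACADVL rose with both variants, ETFA fell with H448L, and the other members did not pass. ACADVL (ENSG00000072778, 17:7217125-7225273, plus strand) takes the first step of beta-oxidation on very long chains. It was at 40.7, 46.0 and 46.0 CPM in WT, 50.3, 58.1 and 56.1 CPM in R227Q, and 53.2, 59.1 and 55.9 CPM in H448L. Every variant library was above every WT library. ACADVL rose by 0.25 ± 0.061 on the log2 scale with R227Q (edgeR, adjusted p = 0.0041) and by 0.23 ± 0.071 with H448L (adjusted p = 0.046). The within-submission differences were 0.20 and 0.30 for R227Q and 0.26 for H448L. The R227Q call was lost without WT 3 (0.20). The H448L call was close to the threshold and was lost without WT 1 (0.20), WT 3 (0.16), R227Q 1 (0.26), R227Q 3 (0.22), H448L 2 (0.19) or H448L 3 (0.23), with DESeq2 (0.22), with DESeq2's size factors in edgeR (0.22), with every gene kept (0.21) and in 4LJFHN alone (0.26). Exons of ACADVL share 85 bases with DLG4 on the opposite strand, a gene outside the lists that was at 5.7 to 14.9 CPM and rose by 0.54 with R227Q and 0.44 with H448L, and the part of those reads in the ACADVL values was not tested.

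ETFA (ENSG00000140374, 15:76215355-76311472, minus strand), the alpha subunit of the flavoprotein that takes electrons from the acyl-CoA dehydrogenases, was at 344, 333 and 417 CPM in WT, 327, 375 and 387 CPM in R227Q, and 377, 378 and 369 CPM in H448L. H448L lay between the WT libraries of the 2 submissions and below WT 3, the only WT library of its own. With the submission term ETFA fell by 0.15 ± 0.044 on the log2 scale with H448L (edgeR, adjusted p = 0.033), and the value with R227Q was −0.10 ± 0.038 (adjusted p = 0.072). The H448L difference within 4LJFHN was −0.18. That call was lost without WT 1 (−0.15), WT 3 (−0.10), R227Q 1 (−0.18), R227Q 3 (−0.15), H448L 2 (−0.15) or H448L 3 (−0.14), with upper-quartile factors (−0.13) and in 4LJFHN alone (−0.18), and without the submission term the value was −0.01. The R227Q value passed without H448L 3 (−0.10).

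ETFB, the partner subunit of ETFA, was at 178 to 206 CPM and differed from WT by 0.00 with R227Q and 0.03 with H448L, neither of which passed. ECI1, an enoyl-CoA isomerase for unsaturated chains, was at 179 to 200 CPM in SDKYMR and 114 to 123 CPM in 4LJFHN, with differences of 0.11 (edgeR, adjusted p = 0.054) and 0.09. It passed the R227Q test in 4 of the 18 alternative settings, at 0.12 to 0.14. ECHS1, the short-chain enoyl-CoA hydratase, was at 104 to 121 CPM, with differences of 0.03 and 0.04. Among the carnitine enzymes, CPT1A differed from WT by −0.03 and −0.05 and CPT2 by 0.11 and −0.01, and for HADHA and HADHB, the subunits of the trifunctional protein, the values were 0.03 and −0.01, and 0.08 and 0.09. Across all fatty acid oxidation members that did not pass, the values ran from −0.16 to 0.13 with R227Q (15 genes) and from −0.13 to 0.11 with H448L (14 genes). The 95% interval reached more than 0.32 from 0 for ACADS, the short-chain dehydrogenase, and ETFDH, which hands the electrons on to ubiquinone, in both comparisons. These are the fatty acid oxidation members with the lowest levels, at 11.2 to 15.4 CPM and 11.4 to 14.1 CPM. The summed level was 1418.0 to 1522.9 CPM in WT, 1442.9 to 1528.2 CPM in R227Q and 1486.6 to 1517.3 CPM in H448L.

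**Figure D3:**
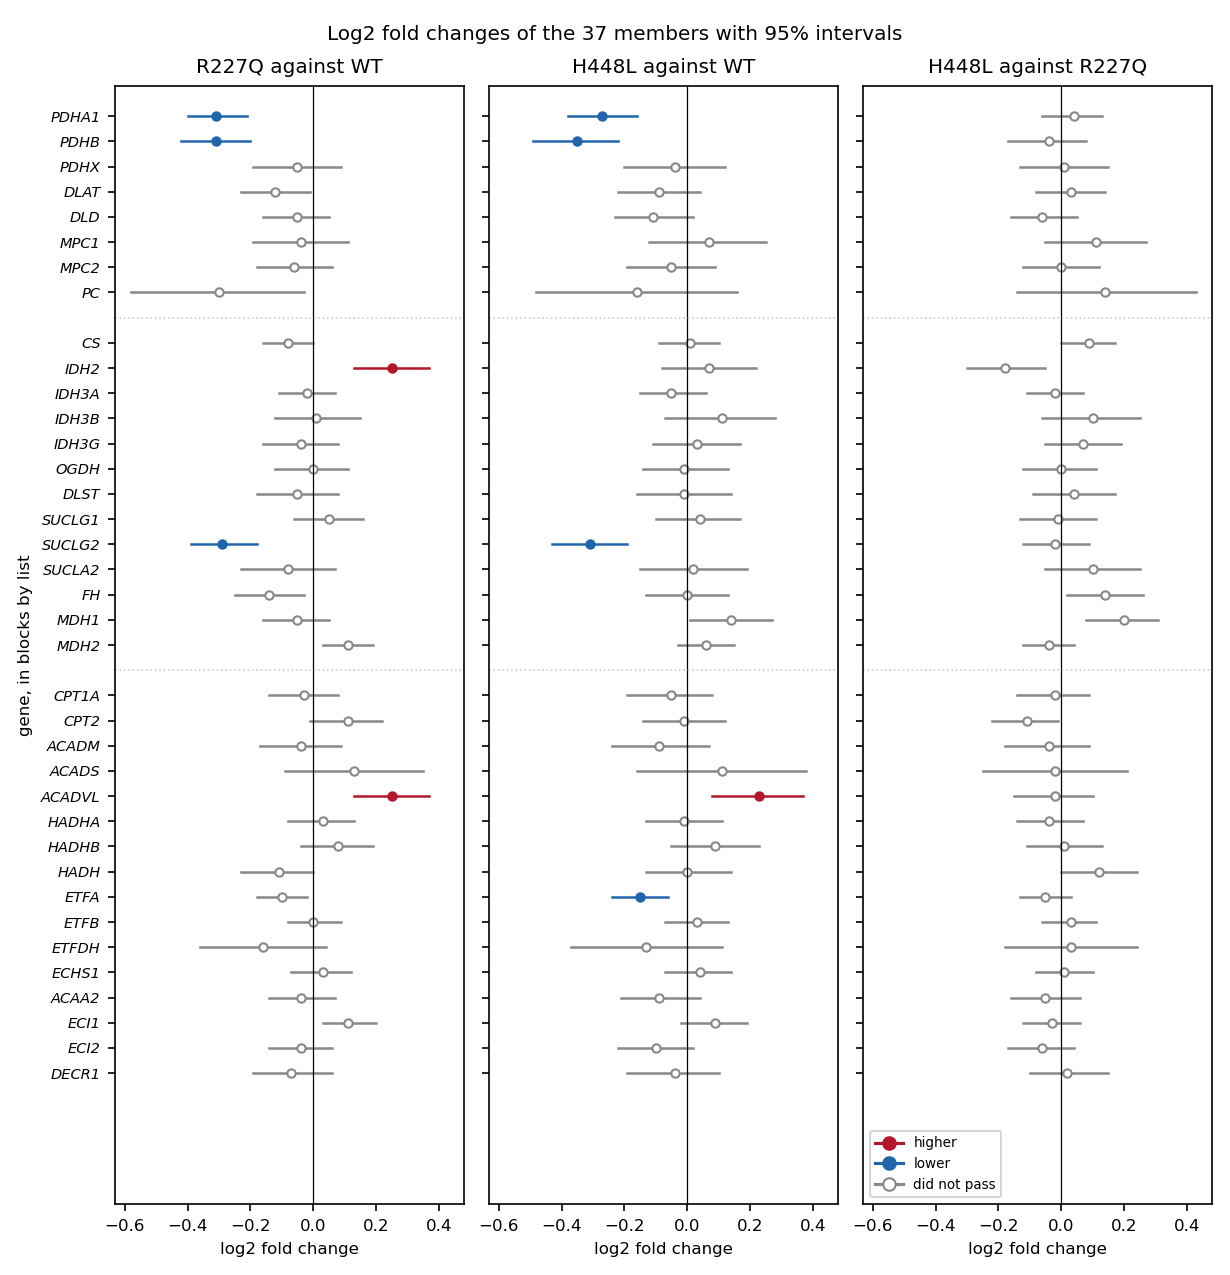
Log2 fold change of each of the 37 members with its 95% interval in R227Q against WT, H448L against WT and H448L against R227Q, in blocks by role; filled symbols passed edgeR's test and open symbols did not. PDHA1, PDHB and SUCLG2 lie at −0.35 to −0.27 in both comparisons with WT, and no member is filled in the third.

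The next comparison asked whether the variants differ from each other. Between H448L and R227Q, 0 of 37 members passed edgeR's test, against 0.207% of all 16908 genes (0.0828% rose and 0.124% fell). At an unadjusted p under 0.05, 3 members were higher in H448L (CS, FH and MDH1) and 2 were lower (IDH2 and CPT2), named here after their values were seen. DESeq2 and limma-voom also called 0. The log2 differences ran from −0.18 for IDH2 to 0.20 for MDH1, the cytosolic malate dehydrogenase (edgeR, adjusted p = 0.24 and 0.14). The difference was 0.04 (95% interval −0.06 to 0.13) for PDHA1, −0.04 (−0.17 to 0.08) for PDHB, −0.02 (−0.12 to 0.09) for SUCLG2, −0.02 (−0.15 to 0.10) for ACADVL and −0.05 (−0.13 to 0.03) for ETFA. For IDH2 the interval of −0.30 to −0.05 lay below 0 before adjustment. The interval lay within 0.32 of 0 for 36 of the 37 members, with PC as the exception. A test that is not passed does not show that the variants act alike.

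Related genes outside the 37 were read from 6 lists with 91 genes, of which 83 passed the filter on low counts (PDK4, ME3, ACSL5, ACADL, ACOX2, EHHADH, PPARGC1A and HNF4A did not). With R227Q, 7 rose and 12 fell (22.9%, against 17.4% of all genes), and with H448L, 5 of 83 fell and 78 did not pass (6.02%, against 7.97%), with 0 higher in edgeR, DESeq2 and limma-voom and 6 higher at an unadjusted p under 0.05. DESeq2 called 1 higher and 6 lower with R227Q and 3 lower with H448L. Between H448L and R227Q, 0 of 83 passed in edgeR, DESeq2 or limma-voom, and at an unadjusted p under 0.05 there were 6 higher and 3 lower. The median of these genes was −0.002 with R227Q and 0.005 with H448L. Up to 3 genes per list are named, those with the smallest p against WT. Of the genes named, DESeq2 did not call PDP2, NNT, ACO1, SDHD, CPT1B, CPT1C and PPARGC1B with R227Q or PCCB and SCP2 with H448L, and none of their 19 edgeR calls was made without the submission term.

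Among 17 regulators and lipoylation enzymes of pyruvate dehydrogenase, 1 rose and 2 fell with R227Q, and 17 did not pass with H448L. PDK3, a kinase that switches the complex off, fell by 0.34 ± 0.071 on the log2 scale with R227Q (edgeR, adjusted p = 0.00088; −0.26 with H448L, adjusted p = 0.055). PDP2, a phosphatase that switches it on, fell by 0.24 with R227Q (−0.13 with H448L), and DHTKD1, a subunit of a related oxoadipate dehydrogenase, rose by 0.22 (0.16 with H448L). Without R227Q 1 the calls of PDK3 (−0.29), PDP2 (−0.25) and DHTKD1 (0.18) were lost, that of PDP2 also without WT 3 (−0.24) or R227Q 3 (−0.20). Of 19 TCA feeder and accessory genes, 3 rose and 3 fell with R227Q, and 19 did not pass with H448L. NNT, the transhydrogenase that makes mitochondrial NADPH, rose by 0.20, ACO1, the cytosolic aconitase, rose by 0.17, and SDHD, a membrane anchor of succinate dehydrogenase, fell by 0.29, all with R227Q. The values with H448L were 0.05, 0.12 and 0.07. Without R227Q 1 the calls of NNT (0.15), ACO1 (0.19) and SDHD (−0.21) were lost, that of ACO1 also without WT 2 (0.16), WT 3 (0.15) or R227Q 2 (0.16). All of these R227Q calls were also lost in 4LJFHN alone, where R227Q 1 is absent. Without the submission term the R227Q values were 0.39 for DHTKD1, 0.31 for ACO1 and −0.95 for SDHD.

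Of 15 uptake, activation and transport genes, 2 rose with R227Q, CPT1B by 0.46 ± 0.135 and CPT1C by 0.81 ± 0.28 on the log2 scale (edgeR, adjusted p = 0.017 and 0.043), which are forms of carnitine palmitoyltransferase best known from muscle and brain. CPT1C was at a low level, 0.932 to 1.2 CPM in WT and 1.63 to 2.57 CPM in R227Q, and passed in 7 of the 18 alternative settings. CPT1B shares 2722 exon bases with the readthrough gene CHKB-CPT1B, so its counts are uncertain. The CPT1B call was lost without WT 1 (0.40), WT 3 (0.29) or R227Q 3 (0.39), and that of CPT1C without WT 1 (0.85), WT 2 (0.80), WT 3 (0.74), R227Q 1 (0.89) or R227Q 2 (0.71) or in 4LJFHN alone (0.89). FABP5, a fatty acid binding protein, differed by −0.06 and −0.15 and did not pass. Of 15 further mitochondrial acyl-CoA enzymes, 1 rose and 3 fell with R227Q and 2 fell with H448L. HSD17B10, which oxidizes branched-chain intermediates and is a subunit of mitochondrial RNase P, fell by 0.24 with either variant (edgeR, adjusted p = 0.00016 and 0.0024). PCCB, a subunit of propionyl-CoA carboxylase, fell by 0.26 and 0.28, and ACAD9, an acyl-CoA dehydrogenase needed for assembly of complex I, fell by 0.24 with R227Q (−0.18 with H448L). Without R227Q 1 the R227Q calls of HSD17B10 (−0.18), PCCB (−0.27) and ACAD9 (−0.22) were lost, and without WT 3 those of PCCB (−0.26 with R227Q and −0.28 with H448L) and ACAD9 (−0.25). PCCB shares 1664 exon bases, 22.1% of its exon bases, with STAG1 on the opposite strand, a gene outside the lists at 49.3 to 97.1 CPM. STAG1 differed by −0.31 and −0.37 and passed with both variants (edgeR, adjusted p = 7.6e-05 and 0.00011). The part of those reads in the PCCB values was not tested. In 4LJFHN alone HSD17B10 was at −0.18 with R227Q and −0.20 with H448L, PCCB at −0.27 and −0.29 and ACAD9 at −0.23 with R227Q, and none of these passed. Without the submission term HSD17B10 was at −0.37 and −0.50, and PCCB at −0.13 with H448L.

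Of 9 peroxisomal beta-oxidation genes, 2 fell with R227Q and 2 with H448L. ACAA1, the peroxisomal thiolase, fell by 0.40 ± 0.075 and 0.47 ± 0.094 on the log2 scale (edgeR, adjusted p = 0.00029 and 0.0014), and the H448L call was lost without WT 3 (−0.40). SCP2, which acts as a thiolase and lipid carrier, fell by 0.24 with H448L (−0.17 with R227Q), but it no longer passed without WT 2 (−0.23), WT 3 (−0.24), R227Q 1 (−0.24), R227Q 3 (−0.23), H448L 2 (−0.21) or H448L 3 (−0.23) or in 4LJFHN alone (−0.24). Of 8 transcriptional regulators of fat oxidation, 2 fell with R227Q and 1 with H448L. PPARG, a nuclear receptor for fatty acids, was at 32.9, 31.8 and 20.7 CPM in WT, 21.0, 11.8 and 13.7 CPM in R227Q, and 13.5, 12.3 and 15.9 CPM in H448L, so R227Q 1 lay above WT 3 and H448L lay below all of WT. It fell by 0.66 ± 0.086 with R227Q (edgeR, adjusted p = 2e-06) and by 0.58 ± 0.111 with H448L (adjusted p = 0.0011), and the H448L call was lost without WT 3 (−0.53). PPARGC1B, a coactivator of mitochondrial genes, fell by 0.40 with R227Q (−0.30 with H448L), but it no longer passed without WT 1 (−0.36), WT 3 (−0.44) or R227Q 1 (−0.36) or in 4LJFHN alone (−0.37), and NRF1 differed by −0.19 and −0.05 and did not pass. Without the submission term the H448L values were −0.80 for ACAA1, −1.10 for PPARG and −0.13 for SCP2.

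**Figure D4:**
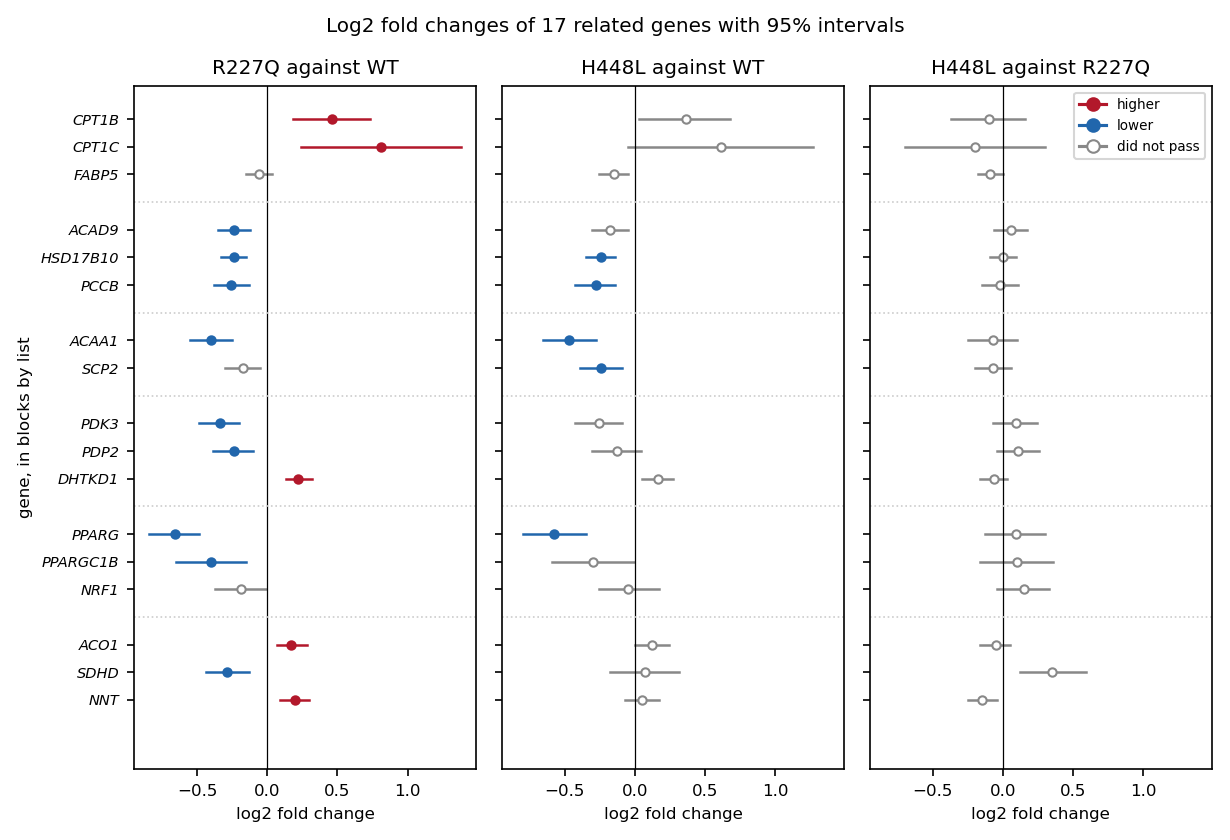
Log2 fold change with its 95% interval for the 17 related genes named in the text, in blocks by list, in the 3 comparisons; filled symbols passed edgeR's test. HSD17B10, PCCB, ACAA1 and PPARG are filled on the lower side in both comparisons with WT, and no gene is filled in H448L against R227Q.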

How the data were processed

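Poly-A RNA-seq libraries were made by a sequencing service, per the labels' protocols. The authors deposited, for each library, estimated counts per gene and CPM, per the file headers. Of the counts above 0, 70.4% to 72.5% per library were exactly whole, with no tolerance (89.1% to 90.1% of all 78894 genes, zeros included), and counts were rounded to whole numbers before testing. The deposited CPM equalled the counts divided by the library total, within a tolerance of 1e-05 CPM. Per the submitters' processing notes, the build is GRCh38. The sources used here name no aligner or counter and do not say whether counting used strand. That bears on 17 of the 37 members, which share exon bases with a gene on the opposite strand in GENCODE.

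The tables list 78986 entries, of which 92 are ERCC spike-ins, left out with their counts. edgeR 4.0.16 (R 4.3.3) was run on all 9 libraries with group and submission as terms, TMM factors of 0.969 to 1.02 and filterByExpr, which kept 16908 genes. The quasi-likelihood test was used with Benjamini-Hochberg adjustment over all of these genes. The design left 5 residual degrees of freedom, and the common biological coefficient of variation was 2.96%. Each SE was taken as the size of the fitted log2 fold change over the square root of F. Differences within a submission were computed from group means of log2 CPM, for which the prior count was 2. Alternatives used DESeq2 1.42.0, limma 3.58.1 (voom), other scaling, other filters, other terms and left-out libraries. The code was tested on simulated data.

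The members and lists were chosen with earlier results of these data known. All 37 members were accounted for by role, those past the threshold with each library's value, the 3 highest in mean CPM of the others in each role group, and further members by range and count or as a partner of a member named. From each related list up to 3 genes with the smallest p were named, of which 1 is not reported here.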

Additional observations from a re-analysis of the deposited data

How the results depend on the processing

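The counts of members were recomputed under 18 alternatives. In R227Q against WT, the count of higher members was 4 with upper-quartile factors, 4 with a mean of at least 10 counts, 1 in submission 4LJFHN alone and 0 without the submission term, against 2, and that of lower members was 0 without the submission term, against 3. In H448L against WT, the count of higher members was 0, against 1, with DESeq2, with RLE factors, with every gene kept, in 4LJFHN alone and without the submission term, and that of lower members was 0, against 4, without the submission term. Leaving out each library in turn gave 0 to 4 higher and 3 to 5 lower members with R227Q, 0 to 1 higher and 2 to 4 lower with H448L, and 0 to 0 in either direction between the variants. No called value changed sign. Of 1998 values of single members, 1950 kept their side of the threshold, 34 lost it and 14 gained it. Only values of the 10 main calls could be lost, so most of the 1998 could not. Among the 1950, 188 changed sign without a call in either fit. Over all genes, DESeq2 called 8.85% with R227Q and 3.75% with H448L, and the fit without the submission term 1.85% and 0.869%, against 17.4% and 7.97%. With the replicate block the counts were 3 higher and 3 lower with R227Q, 1 higher and 4 lower with H448L, and 0 between the variants. The labels do not say that the numbers pair libraries, so the block was not used for the results. Residuals of same-numbered libraries correlated from −0.40 to 0.12. The group and submission terms tie the residuals of WT and R227Q to each other (WT 3 and R227Q 1 correlated at 1), so these correlations cannot decide on pairing. H448L has libraries in 1 submission, with WT 3 as the only WT library there, which limits that comparison.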

Other observations

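The submissions differed in more members than the variants did. Between SDKYMR and 4LJFHN, 21 of 37 members passed edgeR's test (56.8%, against 43.8% of all genes tested). The members with the largest differences were IDH3B, at 56.3 to 62.4 CPM in SDKYMR and 29.4 to 37.5 CPM in 4LJFHN (0.98 on the log2 scale), MPC1 (0.86), MDH1 (0.74), ECI1 (0.74), CS (0.62), PDHB (0.59), FH (0.52) and SUCLG1 (0.47), all higher in SDKYMR, and CPT2 was the member furthest below 4LJFHN there (−0.44). Outside the members, SDHD was at 51.7, 53.5 and 42.7 CPM in SDKYMR and at 8.33 to 12.8 CPM in 4LJFHN (2.33). The difference between submissions in the R227Q effect passed for 0 of 37 members and 0 of 16908 genes in edgeR, with 0 members and 736 genes at an unadjusted p under 0.05. No other tool was run on that difference. In SDKYMR, R227Q 1 was the only R227Q library, and in 4LJFHN, WT 3 was the only WT library. The lack of calls therefore does not show that the R227Q effect was the same in both submissions.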
